A study of Homo sapiens with 42 samples.

Results

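The 6 genes described here, MSH3, MSH6, MLH3, PMS1, PMS2 and EXO1, belong to DNA mismatch repair, and they were taken by symbol from tables of 57820 gene rows each. All 6 were found in the tables of 5 human B-cell acute lymphoblastic leukaemia lines, and all 6 passed the filter on low values in every comparison. RNA was sequenced from 42 libraries in which NSD2, an enzyme that methylates lysine 36 of histone H3, had been added or knocked down. In Reh and 697 the arms were an empty vector (EV), added wild-type NSD2 (WT) or added NSD2 with the E1099K substitution (EK), with 2 libraries per arm in Reh and 3 in 697. The knockdown lines were SEM, RS411 (RS4;11) and RCH (RCH-ACV), whose arms were a non-targeted control (NT) and the hairpins sh2 and sh5, with 3 libraries per arm. The series text names sh2 as the NSD2 knockdown, and sh5 stands in the sample titles alone. The sources used here do not say which promoter drove NSD2 or whether a line was a single clone. They also do not say that replicates were separate cultures, so p-values measure the spread between these libraries, which may be technical.

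Mismatch repair removes wrongly paired bases and small loops that escape proofreading during DNA replication. MutS proteins recognise the error, MutL proteins are recruited and nick the new strand, an exonuclease removes the stretch, and polymerase and ligase refill it. In leukaemia cells the pathway is known for its part in the killing by thiopurines, since cells with defective mismatch repair tolerate these drugs. MSH6 carries a domain that binds methylated lysine 36 of histone H3, the residue on which NSD2 acts.

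MSH6, the subunit that recognises single-base mismatches and short loops, lies at chr2:47695530-47810101 on the plus strand. MSH3, its counterpart for larger loops, lies at chr5:80654648-80876460 on the plus strand. Among the MutL homologues, PMS2, which carries the nicking endonuclease, lies at chr7:5973239-6009125 on the minus strand. PMS1, a MutL homologue, lies at chr2:189784085-189877629 on the plus strand, and MLH3, best known for crossing over in meiosis, at chr14:75013764-75051532 on the minus strand. EXO1, the exonuclease that digests the nicked strand from its 5′ end, lies at chr1:241847967-241895148 on the plus strand. These are whole-gene spans of GENCODE 29 on GRCh38, while reads were aligned to hg19, and the values below count reads over genes, not over single exons.

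Some members share exonic bases with a gene on the opposite strand. MSH6 shares 1785 of its 10993 exonic bases with FBXO11, and PMS1 shares 103 of 5454 with ORMDL1. The libraries were stranded, but no source used here states whether counting used strand, so reads in those stretches cannot be assigned to one partner with certainty. PMS2 has near-identical copies (PMS2CL and the PMS2P genes), between which short reads can be split, so its level is uncertain in the same way.

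Sequence upstream of PMS2, EXO1 and MSH6 is shown because these genes carry the called values below, EXO1 with the replicate block. The windows are the 250 bases before the RefSeq transcription start on GRCh38.p14, written 5′ to 3′ on the gene's own strand, with matches to GGGCGG (the GC box) and CCAAT (the CCAAT box) on either strand in capitals. The windows are PMS2 at chr7:6009107-6009356, EXO1 at chr1:241847954-241848203 and MSH6 at chr2:47782895-47783144.
PMS2: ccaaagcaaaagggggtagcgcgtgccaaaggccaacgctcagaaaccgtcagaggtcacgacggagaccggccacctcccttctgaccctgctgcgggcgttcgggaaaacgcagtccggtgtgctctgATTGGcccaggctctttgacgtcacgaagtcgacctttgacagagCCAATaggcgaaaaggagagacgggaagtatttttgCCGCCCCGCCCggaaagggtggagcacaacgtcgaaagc
EXO1: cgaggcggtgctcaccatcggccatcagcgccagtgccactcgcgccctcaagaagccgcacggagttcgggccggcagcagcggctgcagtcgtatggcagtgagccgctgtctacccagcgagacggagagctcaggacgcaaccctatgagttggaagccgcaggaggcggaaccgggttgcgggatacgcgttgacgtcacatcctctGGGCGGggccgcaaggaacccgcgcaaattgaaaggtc
MSH6: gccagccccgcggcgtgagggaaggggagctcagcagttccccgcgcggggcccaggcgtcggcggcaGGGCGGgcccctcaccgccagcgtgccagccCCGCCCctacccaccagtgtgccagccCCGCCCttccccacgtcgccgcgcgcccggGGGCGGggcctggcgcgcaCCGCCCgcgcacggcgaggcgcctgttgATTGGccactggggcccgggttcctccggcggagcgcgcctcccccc
The PMS2 window holds 2 CCAAT boxes and 2 GC boxes, and the EXO1 window holds 1 GC box. The MSH6 window holds 5 GC boxes and 1 CCAAT box. Of all 35116 RefSeq windows of this length, 42.6% hold the GC box and 32.0% the CCAAT box, so both motifs are common. A match is a description of letters, and binding was not measured. PMS1 is transcribed away from ORMDL1, whose start lies 286 bases from its own, and PMS2 away from AIMP2 (120 bases).

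The libraries held between 21941718 and 67796769 reads assigned to genes. NSD2 followed the labels, at 2.92 and 2.91 times the EV mean in Reh WT and EK, 9.58 and 8.94 times in 697, and between 0.413 and 0.613 times the NT mean in the knockdown arms. The NSD2 fall was called in SEM, while in RS411 and RCH its adjusted p ran from 0.0952 to 0.508 (edgeR), so the check is weaker there. With the replicate number as a block, NSD2 in those lines had adjusted p from 0.00926 to 0.0721 (edgeR), and was called in RCH sh2 alone. Of 10 B-lymphoid markers, 9 to 10 reached 1 CPM (reads scaled to library size, so that libraries of a line compare) as a mean over the libraries of each line, with summed levels of 1360 to 4546 CPM. Marker lists of stromal and epithelial, myeloid, erythroid and megakaryocytic, and T and NK cells each had at most 2 members at that level. Each list summed to at most 54.9 CPM, although some sums stood apart from the control arm in every line. Those of SEM and RS411 are given with their results. In RCH sh2 the stromal and epithelial sum was 8.58 to 25.5 CPM against 2.80 to 6.34 in NT. The RCH sh2 myeloid sum was 10.3 to 15.7 CPM against 18.0 to 24.7 in NT. In 697 EK the stromal and epithelial sum was 3.84 to 7.38 CPM against 2.72 to 3.81 in EV. The part of these sums in the members' values was not tested. Because RNA came from bulk cultures, fewer cells of a type and less RNA per cell cannot be told apart.

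Control means of the members spanned 1.84- to 12.6-fold across lines, while arm means within a line lay between 0.721 and 1.37 times their control. In control libraries MSH6 averaged 2039 ± 60.9 CPM (SD, n = 3) in 697, 1438 ± 219.7 in Reh (n = 2), 857.2 ± 96.6 in RS411, 809.9 ± 19.0 in SEM and 251.0 ± 66.2 in RCH (n = 3 each), an 8.12-fold range. RS411 and SEM overlapped, while every other neighbour in that order was apart. The lines were scaled separately, so levels across lines are a description with no test.

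MLH3 and PMS2 each had 1 line far below the others. MLH3 averaged 91.2 ± 18.6 CPM in Reh, 78.1 ± 6.28 in SEM, 72.7 ± 4.69 in RS411 and 33.1 ± 3.72 in RCH, but 7.26 ± 0.189 in 697. Reh, SEM and RS411 overlapped in turn, and RCH and 697 each stood apart, so the order spanned 12.6-fold. PMS2 averaged 24.5 ± 0.180 CPM in 697, 23.6 ± 2.73 in Reh, 21.8 ± 1.46 in RCH and 16.3 ± 1.14 in RS411, but 4.85 ± 0.510 in SEM. The first 3 lines overlapped in turn, and RS411 and SEM each stood apart from the line above. In SEM, AIMP2, a scaffold protein of the tRNA synthetase complex that starts beside PMS2, stood at 27.2 ± 2.89 CPM against 27.3 ± 3.19 in RS411, 28.3 in Reh (libraries at 23.2 and 33.4), 42.3 ± 15.3 in RCH and 78.2 ± 17.3 in 697. The mean of this head-to-head neighbour in SEM was thus close to those in RS411 and Reh, whereas PMS2 in SEM stood apart below both lines. The copies PMS2CL and PMS2P1 stood at 5.36 ± 0.728 and 9.14 ± 0.863 CPM in SEM, which for PMS2CL was the lowest of the 5 lines (7.28 to 15.3 in the others).

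The other 3 members varied less across lines. MSH3 averaged between 48.4 and 50.9 CPM in Reh, SEM, 697 and RS411, whose libraries overlapped, and 26.2 ± 2.23 in RCH, below all of them. PMS1 averaged 81.2 ± 0.648 CPM in Reh and 57.6 ± 9.42 in 697, 51.3 ± 4.19 in SEM, 49.9 ± 6.98 in RS411 and lowest in RCH, and the libraries of these 4 lines overlapped in turn. EXO1 averaged 128.1 ± 32.9 CPM in 697 and 123.0 ± 3.76 in Reh, which overlapped, then 88.7 ± 0.195 in SEM, 82.4 ± 5.97 in RCH and 66.5 ± 2.47 in RS411. RCH had the lowest level of MSH6, MSH3 and PMS1.

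**Figure D1:**
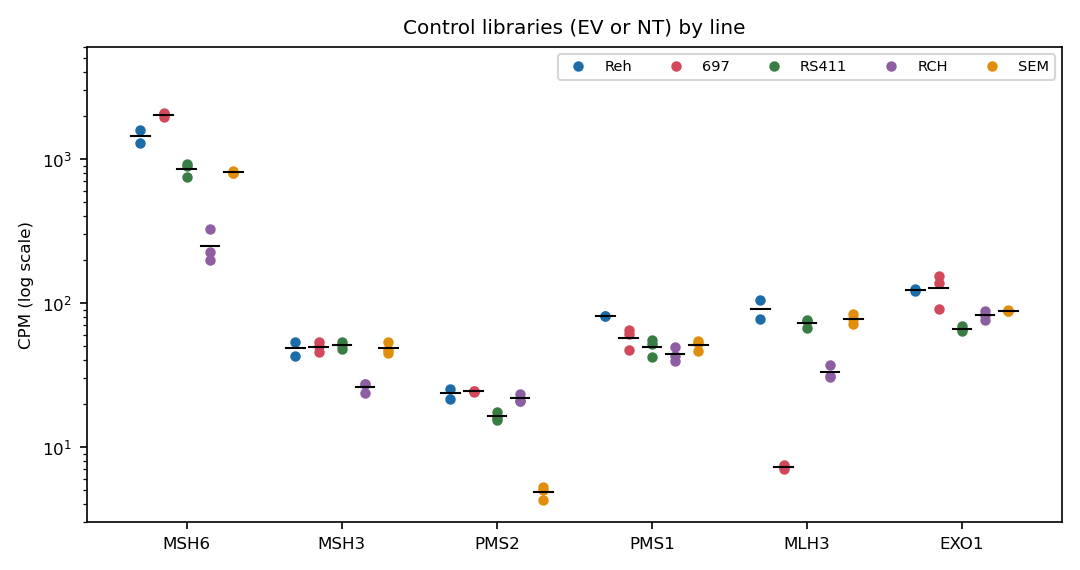
Level of each mismatch repair gene in the control libraries (EV or NT) of each line, in CPM on a log axis; points are libraries and bars are means. MLH3 in 697 (7.26 CPM) and PMS2 in SEM (4.85 CPM) lie well below the same genes in the other lines, and MSH6 is the highest gene in each line.

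Per kilobase of exonic sequence, the order of members could be compared within a line. MSH6 came first and EXO1 second in all 5 lines, at 185.5 ± 5.54 and 30.9 ± 7.94 CPM per kilobase in 697 and at 22.8 ± 6.03 and 19.9 ± 1.44 in RCH. In RCH the spread of the 2 genes overlapped. The lengths merge the exons of all annotated transcripts, 10.993 kilobases for MSH6 and 4.14 for EXO1. The MSH6 span begins at 47695530, before its RefSeq upstream window at chr2:47782895-47783144. Which transcripts were in use was not tested, so the MSH6 values may be understated and the overlap in RCH depends on these lengths. The lowest place went to MLH3 in 697 (0.868 ± 0.0226) and RCH (3.96 ± 0.445) and to PMS2 in the other 3 lines, down to 1.23 ± 0.130 in SEM.

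The first question of the design was what added NSD2 did to these genes. In Reh no member was called between EV and either NSD2 arm. MSH6 read 1283 and 1594 CPM in EV, 1181 and 1551 in WT, and 1126 and 1468 in EK, so the second library of each arm was higher and the arms overlapped. Between libraries of the same number, MSH6, MSH3 and MLH3 were each lower than EV in both NSD2 arms, which share the EV libraries. How many of all genes did so was not counted. EXO1 was 120.4 and 125.7 CPM in EV, 128.7 and 129.8 in WT, and 134.5 and 119.7 in EK. It was the only member in Reh whose libraries did not overlap, above EV in WT, where 15.4% of all genes did the same. Fitted log2 fold changes ran from -0.12 to 0.07 for WT and from -0.15 to 0.06 for EK. With edgeR, 0 of 6 were called in either comparison and 0 had an unadjusted p under 0.05, and DESeq2 also called 0, against 0.219% (WT) and 0.213% (EK) of all genes called.

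In 697 the largest value was for MLH3, where this gene is scarce (236 to 385 reads per library). On the authors' normalized count scale it read 343.2, 355.7 and 348.5 in EV, 212.7, 236.1 and 306.2 in WT, and 257.5, 309.6 and 327.5 in EK. All 6 libraries with added NSD2 lay below all 3 EV libraries. The WT change was -0.49 (log2 of the normalized count + 1, SE 0.180, unadjusted p = 0.021, limma) with an adjusted p of 1, and the EK change was -0.23 (SE 0.180, adjusted p = 0.986). With the replicate number as a block, MLH3 had adjusted p = 0.136 in WT (SE 0.125, unadjusted p = 0.00294, limma) and 0.368 in EK. The block called 0 of 6 members in either arm. Under any alternative fit run, the block among them, at most 1.20% (WT) and 1.11% (EK) of all genes were called. On the normalized count scale MLH3 and PMS2 did not overlap EV in WT, and MSH6, MLH3 and PMS2 did not in EK, each lower, where 3.19% and 3.97% of all genes were lower without overlap. On the CPM scale PMS2 overlapped EV in both arms, so its separation depends on the scaling.

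MSH6 in 697 read 2069, 1969 and 2079 CPM in EV, 1853, 1843 and 2018 in WT, and 1864, 1672 and 1914 in EK. The EK libraries lay below EV with a change of -0.19 (SE 0.113, adjusted p = 0.986, limma), and the WT range overlapped EV, although each WT and EK library was lower than the EV library of its number. Both arms share the EV libraries, and the share of all genes lower by number was not counted. PMS2 in 697 hardly varied, from 22.3 to 24.7 CPM over all 9 libraries. EXO1 ranged from 91.3 to 154.6 CPM over the EV libraries alone, wider than its changes of 0.03 (WT) and -0.16 (EK). By limma 0 of 6 members were called in WT (1 with an unadjusted p under 0.05) and 0 of 6 in EK (0 unadjusted), and edgeR on recovered reads also called 0, against 0.19% and 0.172% of all genes. In 697 EK all 16 S phase markers and all 14 G2 and M phase markers had negative changes, with medians of -0.16 and -0.26 against -0.02 for all genes and 0 called in either list (limma), and their part in the members' values was not tested.

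The direct comparison of EK with WT addressed whether the substitution matters. In Reh the fitted changes ran from -0.07 to 0.03, and in 697 from -0.19 (EXO1) to 0.25 (MLH3). By edgeR in Reh and limma in 697, 0 of 6 members were called and 0 had an unadjusted p under 0.05, and DESeq2 in Reh and edgeR on recovered reads in 697 also called 0. The background was 0% of genes called in both lines.

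**Figure D2:**
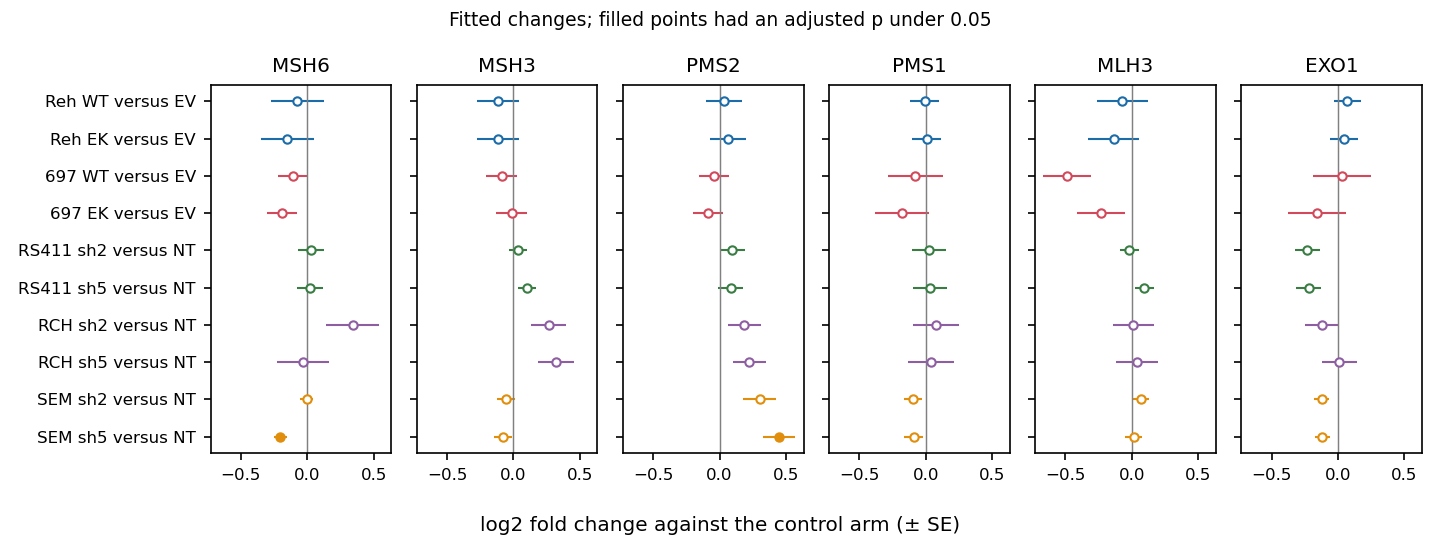
Fitted log2 fold change of each member against the control arm of its line, with standard errors; colours are lines and filled points had an adjusted p under 0.05. Only MSH6 (-0.20) and PMS2 (0.45) in SEM sh5 are filled. The PMS2 points of the knockdown arms lie to the right of 0, between 0.08 and 0.45, and within a line both hairpins share the NT libraries.

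Without the replicate block, changes within a line were called in SEM sh5 alone, and they were small. PMS2 in SEM stood at 5.02, 5.25 and 4.27 CPM in NT, 5.71, 5.74 and 6.46 in sh2, and 6.64, 6.47 and 6.75 in sh5. Every knockdown library lay above every NT library, as for 19.3% of all genes in sh2 and 18.3% in sh5, and the counts behind them were 160 to 255 reads. In sh5 the mean was 1.37 times that of NT, a log2 change of 0.45 (SE 0.121, adjusted p = 0.0144, edgeR). In sh2 it was 1.23 times, a change of 0.30 (SE 0.122, adjusted p = 0.0806), which was not called. Without NT replicate 3 the sh5 change was 0.37 and its adjusted p 0.0724, so the call was lost without that library.

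The PMS2 copies and its neighbour were read beside it. PMS2P1 rose in SEM sh5 by 0.32 (log2, SE 0.101, adjusted p = 0.0357), while PMS2CL had a change of -0.13 (SE 0.130, adjusted p = 0.534). Of the 5 copies measured, PMS2P1 was the 1 called in any of the 10 comparisons with a control. How reads were shared between PMS2 and these copies was not tested. AIMP2 rose in SEM sh2 by 0.26 (SE 0.0823, adjusted p = 0.0300), and in sh5 its change was 0.21 (SE 0.0822, adjusted p = 0.0813).

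PMS2 changes in the other knockdown lines were not called, and the difference between lines was not called either (adjusted p = 0.737 for sh2 and 0.649 for sh5). RCH libraries read 23.5, 21.0 and 20.9 CPM in NT, 25.1, 24.6 and 24.7 in sh2, and 27.5, 24.6 and 24.2 in sh5. All knockdown libraries lay above NT, as for 13% of all genes in sh2 and 3.97% in sh5. The changes were 0.19 (SE 0.126, adjusted p = 0.435) and 0.22 (SE 0.126, adjusted p = 1). RS411 libraries read 16.0, 15.4 and 17.6 CPM in NT, 18.0, 18.4 and 16.0 in sh2, and 17.8, 17.4 and 16.7 in sh5, and the arms overlapped. There the changes were 0.10 (SE 0.0943, adjusted p = 0.625) and 0.08 (SE 0.0944, adjusted p = 0.787).

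**Figure D3:**
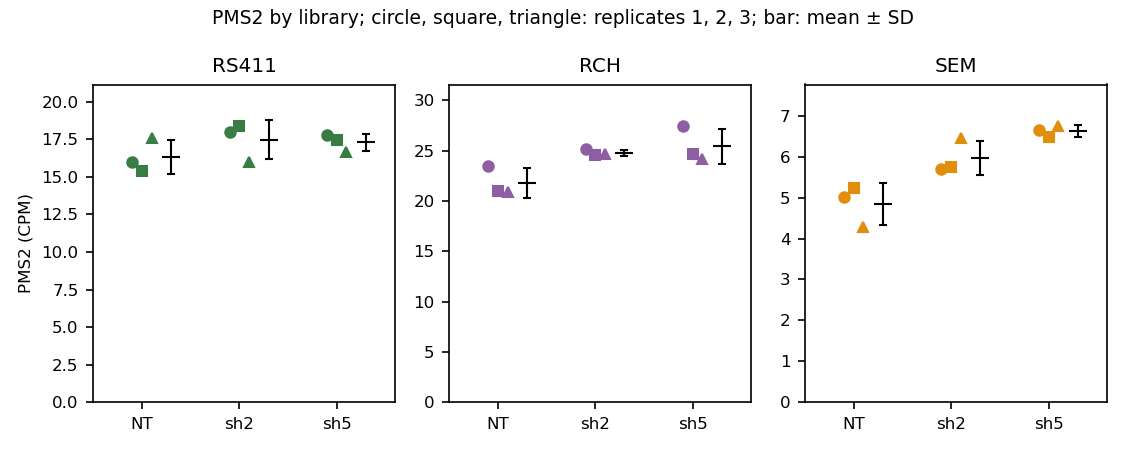
PMS2 in each library of the knockdown lines, in CPM from 0, by arm; symbols mark the replicate number and bars give mean ± SD. SEM, the line with the lowest PMS2 (NT 4.85 CPM), and RCH have all sh2 and sh5 libraries above NT, while the RS411 arms overlap. Of all genes, 19.3% and 18.3% were above NT without overlap in SEM sh2 and sh5, and 13% and 3.97% in RCH.

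Over the 27 knockdown libraries in 1 fit, PMS2 was the only member whose mean response over the 3 lines was called. The mean change was 0.21 (SE 0.0628, adjusted p = 0.0246, edgeR) for sh2, where 15% of all genes were called and 7.92% called higher. For sh5 it was 0.26 (SE 0.0627, adjusted p = 0.0124), where 5.11% were called and 2.99% called higher. Both calls were lost under some settings: without the low-count filter the adjusted p was 0.242 for sh2 and 0.134 for sh5. For sh2 it rose to between 0.0503 and 0.0670 on leaving out RCH NT replicate 2 or 3, RS411 NT replicate 2, RS411 sh2 replicate 1 or 2, SEM NT replicate 3 or SEM sh2 replicate 3. PMS2P1 rose by 0.23 (SE 0.0607, adjusted p = 0.0106) for sh2 and 0.20 (SE 0.0606, adjusted p = 0.0480) for sh5. The response of no member was called as differing between lines, with 1 of 6 under an unadjusted p of 0.05 for each hairpin (edgeR, the only tool run for it), against 7.93% of all genes for sh2 and 1.75% for sh5. That member was MSH3 for both hairpins, with adjusted p = 0.164 and 0.278.

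MSH6 fell in SEM sh5, the knockdown arm in which it was called. SEM libraries read 800.4, 797.5 and 831.8 CPM in NT, 804.7, 786.0 and 830.4 in sh2, and 714.0, 676.2 and 719.9 in sh5. The sh5 libraries lay below all others while sh2 overlapped NT. Of all genes, 17.3% were lower in sh5 than in NT without overlap. The sh5 mean was 0.868 times that of NT, a log2 change of -0.20 (SE 0.0506, adjusted p = 0.00910, edgeR), against -0.01 (SE 0.0505, adjusted p = 0.956) for sh2. Without sh5 replicate 2 the change was -0.17 and the adjusted p 0.0670. FBXO11, which overlaps MSH6 on the other strand, had a change of -0.14 (SE 0.0780, adjusted p = 0.251) in SEM sh5.

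With PMS2 and MSH6, 2 of 6 members were called in SEM sh5, 1 in each direction, where 21.3% of all 17042 genes were called (11.1% higher and 10.2% lower). In SEM sh2, 0 of 6 were called against 27.9% of genes, with 2 of 6 (PMS2 and EXO1) under an unadjusted p of 0.05. DESeq2 called 2 in sh5 and 0 in sh2. These counts are too few to set the members apart from the background. Summed cell type markers also stood apart by arm in SEM. The summed B-lymphoid level was 1613 to 1760 CPM in NT, 1376 to 1415 in sh2 and 1360 to 1440 in sh5, with 10 of 10 markers at 1 CPM or more as a mean over the SEM libraries. The summed myeloid level was 13.6 to 20.5 CPM in NT, 32.9 to 48.0 in sh2 and 41.8 to 54.9 in sh5, with 2 of 8 markers at that level and FCGR3A and ELANE at 0 in every SEM library. Neither sum overlapped NT in either knockdown arm, and their part in the SEM values of PMS2, MSH6 and EXO1 was not tested.

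MSH6 in the other knockdown lines varied with the library. RCH read 325.8, 227.2 and 199.9 CPM in NT, 357.5, 270.1 and 326.1 in sh2, and 292.4, 228.6 and 214.9 in sh5. The highest NT library lay above 1 of the 3 sh2 libraries, so the arms overlapped, and the sh2 change of 0.34 (SE 0.198, adjusted p = 0.366) was not called. In RS411 the second library of each arm was the lowest, at 747.7, 800.5 and 783.0 CPM, and the other libraries lay between 893.4 and 931.0. The changes there were 0.03 and 0.02.

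**Figure D4:**
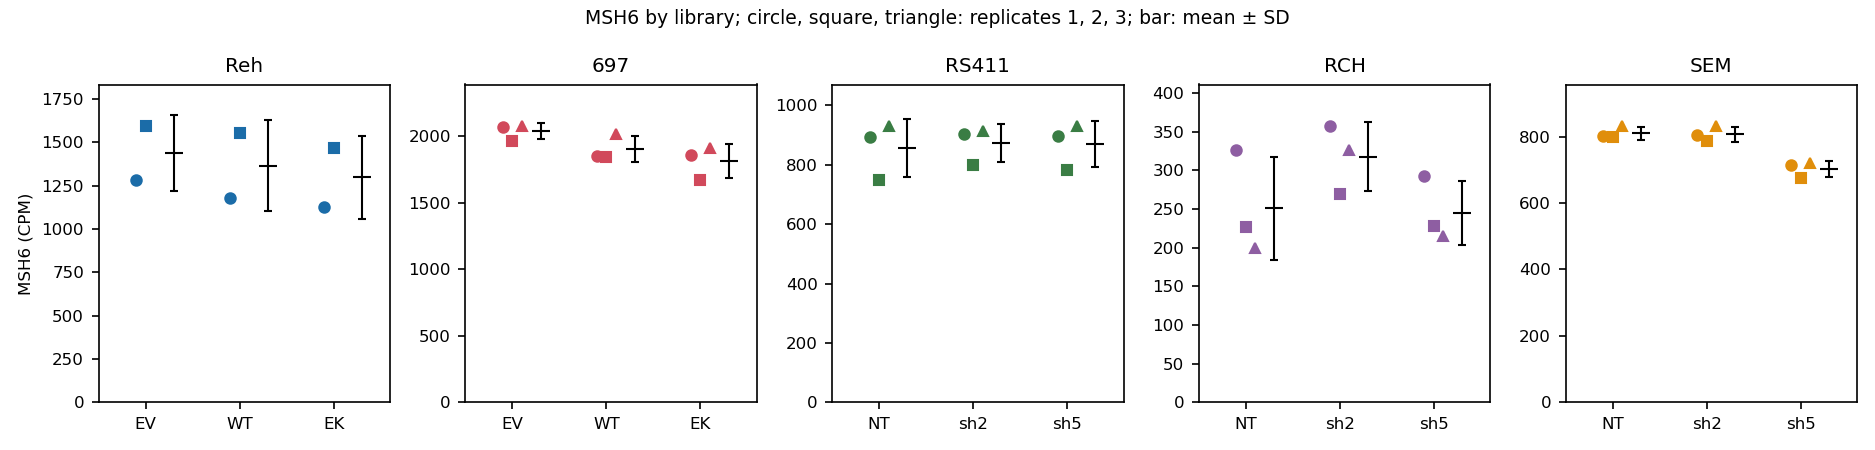
MSH6 in each library of all 5 lines, in CPM from 0, by arm; symbols mark the replicate number and bars give mean ± SD. The SEM sh5 libraries (676.2 to 719.9 CPM) lie below SEM NT, as 17.3% of all genes did, and below sh2. In Reh and RS411 the libraries separate by replicate number more than by arm.

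EXO1 had lower means than NT, without passing the unblocked test, in the knockdown arms of RS411 and SEM. RS411 libraries read 64.1, 66.4 and 69.0 CPM in NT, 49.6, 54.8 and 65.5 in sh2, and 54.6, 57.4 and 59.2 in sh5. The sh5 libraries lay below NT, as 9.01% of all genes did, and 1 sh2 library reached into the NT range. The log2 changes were -0.23 (SE 0.0935, adjusted p = 0.214, edgeR) for sh2 and -0.22 (SE 0.0936, adjusted p = 0.398) for sh5. Same-numbered libraries varied together in RS411, and with the replicate number as a block the changes of -0.24 and -0.22 had adjusted p = 0.0178 and 0.0486, where the block called 14.5% and 5.41% of all genes. Without sh2 replicate 3 the sh2 change was -0.35 (adjusted p = 0.0184). Erythroid and megakaryocytic markers summed to 24.0 to 26.7 CPM in RS411 NT, 4.75 to 10.6 in sh2 and 25.5 to 32.9 in sh5, with 1 of 6 markers at 1 CPM or more as a line mean and PF4 at 0 in every RS411 library, and their part in the RS411 values was not tested. By edgeR without the block, 0 of 6 members were called in each comparison with 1 of 6 (EXO1) under an unadjusted p of 0.05, DESeq2 also called 0, and the background was 1.67% for sh2 and 0.478% for sh5.

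SEM showed a smaller EXO1 difference with little spread. NT libraries read 88.5, 88.9 and 88.7 CPM, sh2 libraries 86.7, 76.8 and 80.9, and sh5 libraries 82.9, 82.3 and 79.9. All knockdown libraries lay below NT (as for 20.1% of all genes in sh2 and 17.3% in sh5), with changes of -0.12 in both arms (SE 0.0561 each) and adjusted p = 0.123 for sh2 and 0.157 for sh5. With the replicate block, which pairs the SEM libraries, adjusted p was 0.0437 for sh2 and 0.0587 for sh5, where 37.9% and 32.8% of genes were called. In RCH the EXO1 arms overlapped, with changes of -0.12 and 0.01. Over the 3 lines the mean change was -0.14 (SE 0.0545, adjusted p = 0.0778) for sh2 and -0.10 (SE 0.0544, adjusted p = 0.350) for sh5. The sh2 change became a call without RS411 sh2 replicate 3 (adjusted p = 0.0165), RCH sh2 replicate 3 (0.0455) or RCH NT replicate 3 (0.0479).

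**Figure D5:**
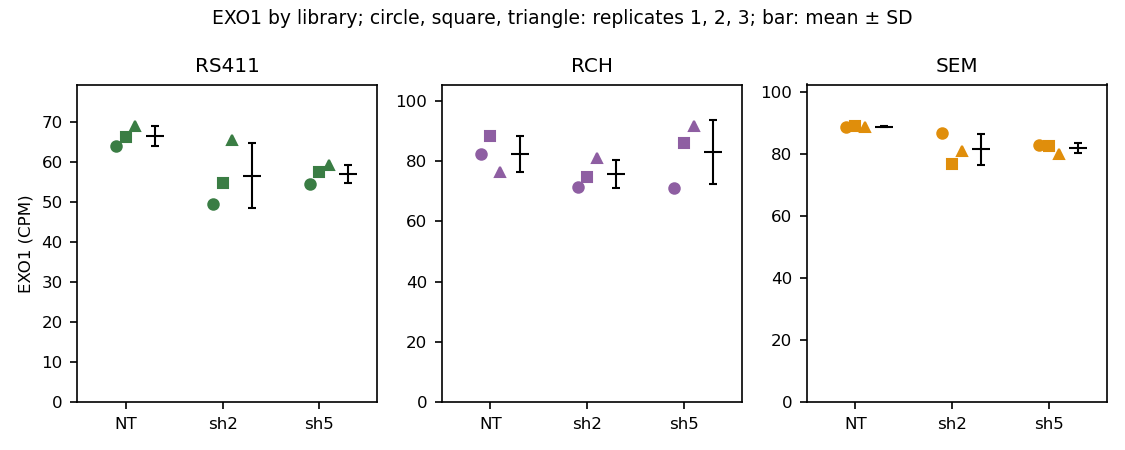
EXO1 in each library of the knockdown lines, in CPM from 0, by arm; symbols mark the replicate number and bars give mean ± SD. SEM NT libraries lie within 88.5 to 88.9 CPM with every knockdown library below them, and RS411 sh2 spreads from 49.6 to 65.5 CPM.

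The largest MSH3 values under knockdown were in RCH, although its response was not called as differing between lines. NT libraries read 27.6, 27.4 and 23.6 CPM, sh2 libraries 35.8, 28.5 and 30.1, and sh5 libraries 33.2, 31.7 and 33.2. Every knockdown library lay above NT, with changes of 0.26 (SE 0.134, adjusted p = 0.307, edgeR) and 0.32 (SE 0.134, adjusted p = 1). MSH3 and PMS2 were the 2 members above NT without overlap in both RCH arms, where 13% and 3.97% of all genes were. In RCH, 0 of 6 members were called for sh2 (0 unadjusted) and 0 of 6 for sh5 (1 unadjusted, MSH3), DESeq2 called 0, and the background was 1.37% and 0.0229%. In SEM the MSH3 changes were -0.06 and -0.08, and in RS411 0.03 and 0.10, where the sh5 libraries lay above NT, as 10.6% of all genes did.

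PMS1 and MLH3 moved least under knockdown. PMS1 changes ran from -0.10 to 0.08 and MLH3 changes from -0.02 to 0.10 over the 6 knockdown comparisons, with the lowest adjusted p at 0.346 and 0.486 (edgeR). PMS1 in RS411 followed the replicate number, with 42.1, 46.2 and 41.9 CPM in the second library of NT, sh2 and sh5 and 51.4 to 56.3 in the others. In 697 the second library of each arm was again the lowest, at 46.9, 44.5 and 39.9 CPM.

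The genes that act with these members in excision and resynthesis were counted from a list of 15 (PCNA, the RFC clamp loader, RPA, polymerase delta, LIG1 and SSBP1). All 15 were tested in every comparison, and the median change ran from -0.19 to -0.01 over the 10 comparisons with a control, against -0.02 to 0.01 for all genes. In SEM, RFC5, a clamp loader subunit that helps to place PCNA on DNA, fell by 0.51 (log2, SE 0.0544, adjusted p = 4.0e-06, edgeR) in sh2 and by 0.41 (SE 0.0543, adjusted p = 6.6e-05) in sh5. RFC3 fell by 0.18 (adjusted p = 0.0230) in SEM sh5, so 1 of 15 was lower in sh2 and 2 of 15 in sh5, with 0 higher, against 27.9% and 21.3% of all genes called there. RPA2, a subunit of the single-strand binding complex, rose in RS411 sh2 by 0.31 (SE 0.0639, adjusted p = 0.0360), the 1 of 15 called there, against 1.67% of all genes. The other 7 comparisons with a control had 0 of 15 called. Over the 3 lines RFC5 alone of the 15 was called, with a change of -0.23 under sh2 (adjusted p = 0.00817), where 15% of all genes were called.

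A second list held 7 genes beside the pathway (MSH4, MSH5, SETD2, FAN1, MCM8, MCM9 and HMGB1). None was called within a line, and SETD2, which trimethylates lysine 36 of histone H3, rose over the 3 lines under sh2 by 0.17 (SE 0.0495, adjusted p = 0.0193, edgeR), the 1 of 7 called in that mean response. Of all genes, 15% were called in that mean response. In the test of the difference between lines under sh2, 2 of 7 were called, SETD2 (adjusted p = 0.0197) and MSH4 (adjusted p = 0.0364), against 7.93% of all genes. Among proliferation markers, 3 of 14 G2 and M phase genes were called lower in SEM sh2 and 4 of 14 in SEM sh5, with 0 called higher. CDK1 was among them, at -0.23 and -0.24. Of all genes, 27.9% and 21.3% were called there in either direction, and 10.2% were called lower in SEM sh5. Whether the list stood apart from the background was not tested. Of 16 S phase genes, CCNE2 alone was called, higher in SEM sh5 by 0.34 (SE 0.0791, adjusted p = 0.00656). In RCH sh2 the G2 and M phase median was -0.26 and the S phase median -0.18, with 0 called. Their part in the EXO1 values was not tested.

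Across the 42 libraries, with each line's mean taken away, EXO1 was most like DNA2 (Pearson r = 0.90), a nuclease and helicase of replication, and MCM10 (r = 0.88), a replication initiation factor, among 8764 genes. MSH6 was most like PJA2 (r = 0.88) and P4HA1 (r = 0.87), and PMS1 most like INTS8 (r = 0.88) and COG5 (r = 0.87). PMS2 was most like EMB (r = 0.78) and GCAT (r = 0.76), MSH3 most like TMOD3 and ZNF654 (r = 0.71 each), and MLH3 most like PIAS2 (r = 0.68) and ZBTB44 (r = 0.67). Between members the coefficient was highest for MSH3 with MSH6 (r = 0.55) and lowest for PMS2 with EXO1 (r = -0.31). These coefficients describe libraries that share lines, arms and replicate numbers, and carry no test.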

How the data were processed

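Per the labels' protocols, RNA was made into stranded total RNA libraries after ribosomal depletion and sequenced on a GAIIx. Trimmomatic, STAR, featureCounts and hg19 stand in the submitters' processing notes, with versions not given in the sources used here. The authors deposited raw read counts for Reh, RS411, RCH and SEM. For 697 the signal values that the authors deposited are counts divided by 1 factor per library, and 100% of values above 0 came back as whole reads within 0.001 reads. Symbols for the raw Reh counts came from the authors' normalized values by matching identical reads. Among Reh columns, 3 of raw and 3 of normalized values match no sample and were not used. Spreadsheet dates stood in place of 27 gene names per knockdown line, whose rows were dropped (0.214%, 0.247% and 0.230% of reads in RS411, RCH and SEM).

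Counts were tested with edgeR 4.0.16 (R 4.3.3) (robust quasi-likelihood), fitting the 3 arms of each line together after filterByExpr and TMM scaling. The 697 values were log2-transformed after adding 1 and tested with limma 3.58.1 (trended eBayes) where the mean reached 10, a scale that understates changes of low genes. A joint edgeR fit of the 27 knockdown libraries tested the mean response over lines and the difference between lines. Benjamini-Hochberg adjustment ran over all genes tested in a comparison, and a gene was called at an adjusted p under 0.05. CPM are TMM-scaled within a line, in 697 from recovered reads. On simulated data with 200 genes changed by 1 on the log2 scale, the fits recovered 77.5% in Reh, 78.5% in 697, 96% in RS411, 60% in RCH, 99% in SEM and 99% in the joint fit. False calls in the same order numbered 13, 17, 16, 10, 12 and 6. The changes of the members were all smaller than 1, so these shares do not say how often changes of their size would be called.

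The members were given, and the members and lists were chosen with earlier results of these data known. Named genes were the members, NSD2, up to 3 called genes per list and comparison, PMS2 copies, genes that start within 1000 bases on the opposite strand, and for each member the 2 most correlated genes. FBXO11 was named after its overlap with MSH6 was seen. Same-numbered libraries deviated together in 697 (correlations of 0.51 to 0.79 between arms), RS411 (0.30 to 0.55), SEM (0.17 to 0.52) and Reh (0.67 to 0.72, from 2 libraries per arm). This was a hint from the data that the numbers pair them, and blocked values stand beside results there that they change. Alternatives were DESeq2 1.42.0, other scalings and filters, other pseudocounts, edgeR on recovered reads, the replicate block and leaving out each library. The combined fits of DESeq2 or recovered reads with the block were chosen after seeing the data. Gene spans came from GENCODE 29 and upstream sequence from RefSeq on GRCh38.p14. Some genes that the naming rule covers are not reported here.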

Additional observations from a re-analysis of the deposited data

How the results depend on the processing

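Of the counts of called members, most stayed within 1.5 times under every alternative run. The exceptions follow, and unless a value beside them shows the cause, the cause was not tested. With the replicate block, 1 member was called in RS411 sh2 (EXO1, also 1 with DESeq2 and the block), 1 in RS411 sh5 (EXO1) and 1 in SEM sh2 (EXO1), where the unblocked fits called 0. In the joint fit the replicate block called 3 members in the mean sh2 response, 2 higher (PMS2 and MSH6, at 0.14 with adjusted p = 0.0468) and 1 lower (EXO1, adjusted p = 0.0282), and 1 in the difference between lines under sh2 (MSH6, adjusted p = 0.0438). Over the alternatives run, up to 22.9% of all genes were called in that mean response and up to 19.8% in that difference. The block changed no other count of called members. Whether the RCH numbers pair is unclear, since correlations ran from -0.01 to 0.73, with NT and sh5 at 0.31 to 0.73. The block in the joint fit includes the RCH numbers all the same. Reh has only 2 numbers per arm, where the block gave MSH6 adjusted p = 0.804 in WT and 0.353 in EK. Without the low-count filter the joint mean responses called 0 for sh2 and 0 for sh5. Leaving out single libraries gave 0 to 1 in RS411 sh2, 1 to 2 in SEM sh5, 0 to 1 in the sh2 difference between lines (1 without RCH NT replicate 1, MSH6, adjusted p = 0.0283) and 0 to 2 in the mean sh2 response (MSH6 was called at 0.22, adjusted p = 0.0378, without RCH NT replicate 1).

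Of 1368 fold changes of single genes under alternatives, 99 were opposite in sign to the reported value, 86 of them from leaving out 1 library, and in none was either value called. The largest of them was 0.22 in size (log2). The number of genes called over the whole table moved more, from 11 to 2495 in RS411 sh2 (286 reported), from 15 to 2250 in RCH sh2 (239), from 3915 to 6455 in SEM sh2 (4760) and from 2648 to 5591 in SEM sh5 (3623). In Reh it ran from 0 to 1027 for EK (34) and in 697 from 9 to 189 for EK (28). PMS2 in SEM (160 to 255 reads) and MLH3 in 697 (236 to 385 reads) rest on the fewest reads among the members.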
